A study of Mus musculus with 12 samples.

Results

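Haemoglobin transcripts were present in every one of the 12 meningeal libraries. Of the other genes in the set, Alas2, Slc4a1 and Klf1 had reads in some libraries only and Hemgn in none. The set holds 8 genes of the 23238 gene symbols in the files, chosen by symbol: the adult alpha chains Hba-a1 and Hba-a2, the adult beta chains Hbb-bs and Hbb-bt, the haem synthesis enzyme Alas2, the anion exchanger Slc4a1, and the nuclear factors Klf1 and Hemgn. Of these 8 genes, 7 had reads in at least 1 library and 5 were abundant enough to be tested. The 4 haemoglobin rows had reads in 12 of 12 libraries, Alas2 in 7, Slc4a1 in 4, Klf1 in 1 and Hemgn in none.

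The series concerns Alzheimer's disease, amyloid and the gene DSCR1, and measured RNA of lymphatic endothelial cells of the mouse meninges, the membranes around the brain. The cells were enriched with magnetic beads, using 3 to 4 mice per strain, and the QuantSeq kit, which reads transcripts near their ends, was given 500 ng of total RNA. The 3 groups are named SJL_B6, AD_B6 and AD_TG, with 4 libraries each, and all share the strain label C57BL/6, the tissue label meninge and the age of 20 weeks. The labels spell out none of these group names and give no allele, promoter, transgene or treatment for any group. Whether each library of a group stands for its own animal is not stated, so p-values measure only the spread between these samples, which may be technical.

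Haemoglobin carries oxygen in red cells and is built from a pair of alpha chains and a pair of beta chains, each holding a haem group. The alpha genes and the beta genes lie in separate clusters on different chromosomes, and red cell precursors transcribe both at very high levels under GATA1 and KLF1. Alas2 makes the first step of haem synthesis in these precursors, and Slc4a1, known as band 3, exchanges chloride for bicarbonate across the red cell membrane. Circulating red cells have lost their nucleus and keep some haemoglobin RNA while young, so haemoglobin transcripts are often found in tissue that held blood.

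The stretches of 250 bases before the start sites of haemoglobin genes and Alas2 are printed here. They come from RefSeq on GRCm38.p6 and are printed along the strand of the gene. Capitals mark 4 motifs of erythroid and general promoters, searched on both strands. The GATA motif was taken as AGATAA and its form that ends as AGATAG, and also as TGATAA and its form that ends as TGATAG. The CACCC box, which KLF1 binds in red cell genes, the CCAAT box and the TATAA box were searched by those letters. Runs of capitals can hold motifs that touch or overlap.
Hba-a1, chr11:32283422-32283671, plus strand: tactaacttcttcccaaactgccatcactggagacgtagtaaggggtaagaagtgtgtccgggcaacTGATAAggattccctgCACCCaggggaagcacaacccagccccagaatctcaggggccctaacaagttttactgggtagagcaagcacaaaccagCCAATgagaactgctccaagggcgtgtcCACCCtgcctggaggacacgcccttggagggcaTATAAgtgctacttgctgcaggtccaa
Hbb-bs, chr7:103827929-103828178, minus strand: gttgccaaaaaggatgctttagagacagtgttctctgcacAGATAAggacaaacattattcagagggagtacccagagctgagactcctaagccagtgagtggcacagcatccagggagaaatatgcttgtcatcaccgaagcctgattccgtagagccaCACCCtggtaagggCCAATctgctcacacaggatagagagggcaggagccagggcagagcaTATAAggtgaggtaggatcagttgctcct
Hbb-bt, chr7:103813924-103814173, minus strand: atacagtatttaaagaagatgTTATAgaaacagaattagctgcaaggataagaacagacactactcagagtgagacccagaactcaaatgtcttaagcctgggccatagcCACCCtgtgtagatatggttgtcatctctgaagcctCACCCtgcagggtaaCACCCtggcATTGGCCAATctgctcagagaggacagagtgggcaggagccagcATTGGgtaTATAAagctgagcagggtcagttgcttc
Alas2, chrX:150547167-150547416, plus strand: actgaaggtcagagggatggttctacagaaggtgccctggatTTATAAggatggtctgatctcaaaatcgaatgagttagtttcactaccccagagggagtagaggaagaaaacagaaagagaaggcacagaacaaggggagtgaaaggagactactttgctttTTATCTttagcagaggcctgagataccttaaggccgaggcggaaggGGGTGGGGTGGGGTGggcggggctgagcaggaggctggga

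The window of Hba-a2 (chr11:32296242-32296491, plus strand) was that of Hba-a1 shifted by a few bases: all 247 aligned bases were identical. The Hbb-bs and Hbb-bt windows matched at 185 of 239 aligned bases (77.4%). CCAAT on the plus strand lay 88 bases before the start of Hba-a1, 76 before that of Hbb-bs and 75 before that of Hbb-bt, and TATAA lay 27, 29 and 28 bases before them. Hba-a1 held 1 GATA match and 2 CACCC matches, Hbb-bs 1 of each, Hbb-bt no GATA match and 3 CACCC matches, and Alas2 1 GATA match and 3 CACCC matches. These motifs are common: of 32851 windows of the same length, 26.5% held GATA, 52% CACCC, 33.8% CCAAT and 22.8% TATAA. A match describes letters only, and whether these letters bear on how the rows move together was not tested.

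Each deposited value is log2(x + 1) of a scaled amount, and the depth was estimated from the steps between low values. In a library, 1 read was worth 0.698 to 1.76 linear units whatever the gene, so values were not divided by transcript length. Estimated reads ran from 4014771 to 9316747 per library, and the genes with reads ran from 8748 in AD_B6 replicate 3 to 12217. A gene with 0 reads could hold up to 3 reads by counting error, which corresponds to a log2 value of 1.63 to 2.65 depending on the library. In 5 libraries, genes without reads are listed at small values above 0, and such values are described here as without reads. Of the lymphatic endothelial genes listed, Prox1 had reads in 2 of 12 libraries, Flt4 in 6 and Lyve1 in 11. The macrophage gene Csf1r and the choroid plexus gene Ttr had reads in all 12. By list, 4 of 11 lymphatic endothelial genes (Pdpn, Nr2f2, Nrp2 and Foxc2) had reads in all 12. The same held for 11 of 12 macrophage and 6 of 8 choroid plexus genes.

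Hba-a1, an alpha chain gene, had the highest haemoglobin values. Its log2 values in replicates 1 to 4 were 13.21, 13.36, 13.43 and 13.41 in SJL_B6, 13.17, 12.94, 11.69 and 15.09 in AD_B6, and 11.84, 13.98, 11.65 and 11.99 in AD_TG. The SJL_B6 libraries lay close together, whereas AD_B6 and AD_TG each held 1 library above every SJL_B6 library and 3 libraries below every SJL_B6 library. The group means were 13.35 ± 0.10, 13.22 ± 1.41 and 12.37 ± 1.09 (SD, n = 4) in the same order.

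Hba-a2, the second alpha chain gene, was lower in each library. It measured 8.92, 10.52, 9.86 and 11.04 in SJL_B6, 10.03, 9.60, 8.41 and 12.19 in AD_B6, and 9.04, 10.78, 8.46 and 9.22 in AD_TG. AD_B6 replicate 4 was again the highest library, and the 3 groups overlapped. The linear ratio of Hba-a1 to Hba-a2 ran from 5.17 in SJL_B6 replicate 4 to 19.6 in SJL_B6 replicate 1, with a median of 8.98. The coding sequences of the pair are identical at 428 of 429 bases, and the 74 aligned bases after the stop codon are all identical. How the authors' counting split reads between such copies is not given in the sources used here, so the ratio and the separate alpha values are uncertain.

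Hbb-bs, a beta chain gene, measured 11.39, 11.91, 11.99 and 12.23 in SJL_B6, 12.002, 11.98, 9.88 and 13.91 in AD_B6, and 10.14, 12.63, 10.54 and 10.70 in AD_TG. Hbb-bt, its neighbour in the beta cluster, measured 10.92, 11.06, 10.60 and 11.47 in SJL_B6, 10.16, 10.19, 8.97 and 12.94 in AD_B6, and 8.26, 11.64, 9.43 and 10.14 in AD_TG. For both genes AD_B6 replicate 4 was the highest library, AD_TG replicate 2 the second, and the groups overlapped. The linear ratio of Hbb-bs to Hbb-bt ran from 1.39 to 3.70. These coding sequences are identical at 443 of 444 bases, while the stretch after the stop codon matched at 95 of 128 aligned bases (74.2%). Which of these stretches the reads covered was not tested, so how well the reads separate this pair is uncertain.

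The files also hold Hbb-b1 and Hbb-b2, names for the beta chain genes of another mouse haplotype. Their values tracked Hbb-bs and Hbb-bt: the linear ratio of Hbb-b1 to Hbb-bs ran from 0.783 to 1, and that of Hbb-b2 to Hbb-bt from 0.589 to 0.999. AD_TG replicate 3 had the lowest ratio for both pairs, and AD_B6 replicate 1 had the second lowest for Hbb-b2 to Hbb-bt, 0.698. In SJL_B6 replicate 1, Hbb-b1 and Hbb-bs had the same value, 11.39, and Hbb-b2 and Hbb-bt had about 1628 and 1629 reads. Whether reads were counted in both rows of a pair was not tested, and the 2 extra rows were kept out of the haemoglobin sum. Of the embryonic and minor globin rows, Hba-x, Hbb-y, Hbb-bh2, Hbq1a and Hbq1b had no reads in any library, and Hbb-bh1 had a value of 1.46 in AD_B6 replicate 2 only.

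**Figure D1:**
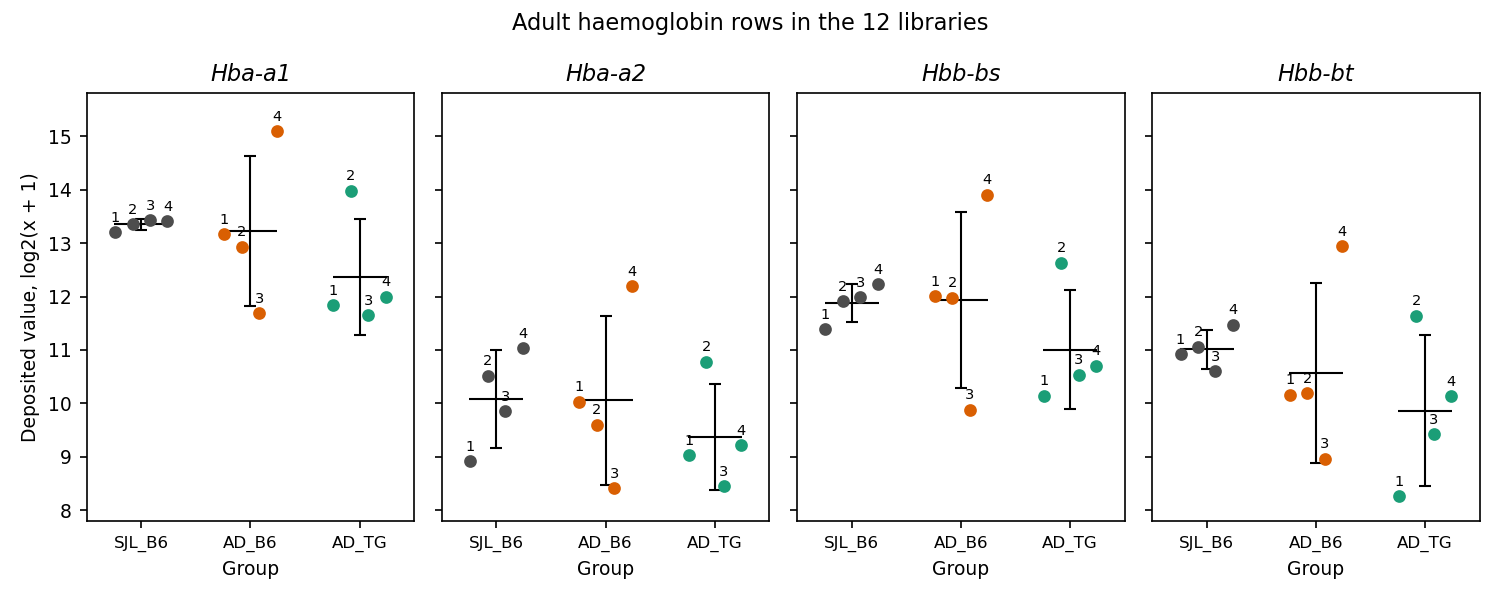
Deposited log2(x + 1) values of the 4 adult haemoglobin rows by group, each point 1 library with its replicate number, with the group mean (horizontal line) and SD (vertical bar, n = 4). AD_B6 replicate 4 is the highest point in every panel, and the groups overlap in every panel.

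Alas2, the erythroid enzyme of the first step of haem synthesis, was detected in 4 of 4 SJL_B6, 2 of 4 AD_B6 and 1 of 4 AD_TG libraries. Its values were 2.80, 9.25, 6.12 and 5.35 in SJL_B6, about 5, 860, 40 and 47 reads. In AD_B6 it had values of 6.42 in replicate 2 and 7.67 in replicate 4, about 101 and 155 reads, and no reads in replicates 1 and 3. In AD_TG it had 3.53 in replicate 1, about 6 reads, and no reads in the other libraries. Its highest library was SJL_B6 replicate 2, not the library highest in haemoglobin. AD_TG replicate 2, second in haemoglobin, had no Alas2 reads among an estimated 9316747.

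Slc4a1, the band 3 anion exchanger, reached 8.58 in AD_B6 replicate 4, about 291 reads, and 4.31 in AD_B6 replicate 1, about 20 reads. It had 1 read each in SJL_B6 replicate 1 and AD_TG replicate 2, and none elsewhere. Klf1, a transcription factor that drives the adult beta globin gene, had reads only in AD_B6 replicate 1, where its value was 6.91, about 127 reads. Hemgn, a nuclear protein of red cell precursors, was listed at 0 in all 12 libraries. Thus the library with the most haemoglobin held Alas2 and Slc4a1 but no Klf1 reads, and the library with Klf1 had no Alas2 reads.

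Summed over the 4 haemoglobin rows, the log2 level was 15.94 in AD_B6 replicate 4, 14.75 in AD_TG replicate 2 and 12.31 in AD_B6 replicate 3, the lowest. The SJL_B6 libraries lay between 13.83 and 14.33. AD_B6 replicates 1 and 2 stood at 13.92 and 13.75, and AD_TG replicates 1, 3 and 4 at 12.46, 12.49 and 12.87. Haemoglobin made up 0.875% of the linear total in AD_B6 replicate 4, 0.381% in AD_TG replicate 2 and 0.0772% in AD_TG replicate 1, the lowest share. The highest library exceeded the lowest 12.4-fold, the second 2.28-fold and the median library 4.17-fold on the linear scale. By row, the highest library exceeded the lowest 10.9-fold for Hba-a1, 13.8-fold for Hba-a2, 16.3-fold for Hbb-bs and 25.7-fold for Hbb-bt. AD_B6 replicate 3, lowest in this sum, also had reads for the fewest genes, 8748, and the part of this in its haemoglobin values was not tested. In bulk samples, fewer cells of a type and less RNA per cell cannot be told apart.

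The ratio of alpha to beta rows spanned a narrower range than the levels. The summed alpha rows exceeded the summed beta rows 1.64-fold to 2.91-fold on the linear scale, with a median of 1.92. Group means of this ratio were 1.995 ± 0.21 for SJL_B6, 1.96 ± 0.40 for AD_B6 and 2.03 ± 0.60 for AD_TG (SD, n = 4), so the group means differed by less than the spread within groups. AD_TG replicate 1 had the highest ratio and AD_TG replicate 3 the lowest.

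**Figure D2:**
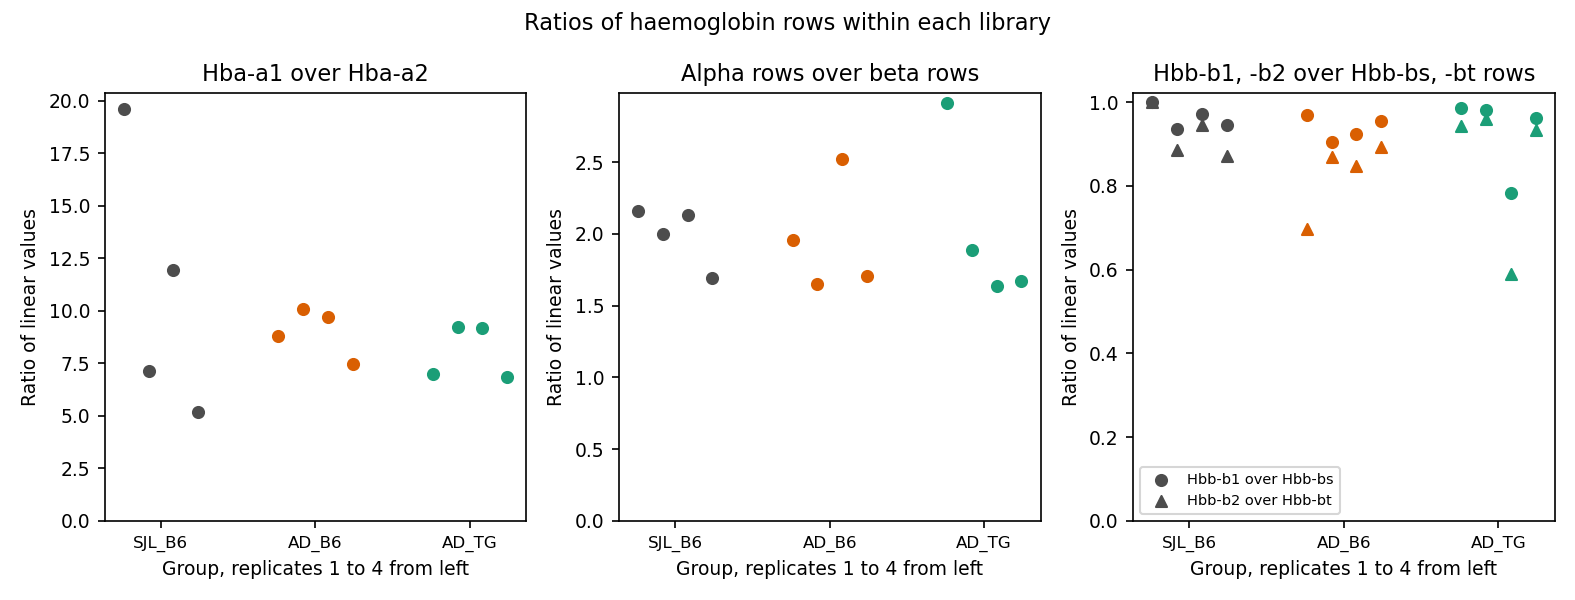
Ratios of linear values within each library (1 point per library, no error bars): Hba-a1 over Hba-a2, the summed alpha rows over the summed beta rows, and Hbb-b1 over Hbb-bs (circles) with Hbb-b2 over Hbb-bt (triangles). The alpha to beta ratio stays between 1.64 and 2.91 while Hba-a1 over Hba-a2 reaches 19.6, and AD_TG replicate 3 is lowest in the last panel.

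Across the 12 libraries the 4 haemoglobin rows moved together. Hba-a1 and Hbb-bs, from different chromosomes, had Pearson's r = 0.97 (permutation p = 1e-05, the smallest that 100000 resamples can give, adjusted p = 0.00011 over 22 pairs) and Spearman's rho = 0.89 (permutation p = 0.00018, adjusted 0.00132). Without AD_B6 replicate 4 and AD_TG replicate 3, the libraries farthest from the median of Hba-a1, r was 0.96. The 6 pairs of haemoglobin rows had r between 0.87 and 0.97 (adjusted permutation p at most 0.0011) and rho between 0.83 and 0.92 (at most 0.00469), and within groups, after subtraction of each group mean, Hba-a1 and Hbb-bs still had r = 0.97. In the 7 libraries without small values in place of 0, r was 0.97 for this pair. The other 5 libraries were too few for a correlation. Pairs within 1 chromosome (Hba-a1 with Hba-a2, r = 0.91, and Hbb-bs with Hbb-bt, r = 0.92) may share reads, and all rows of a library share its scaling.

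Alas2 had r from 0.45 to 0.55 against the 4 haemoglobin rows (adjusted permutation p from 0.138 to 0.218) and rho from 0.29 to 0.43 (adjusted p from 0.303 to 0.4955). Its r with Hba-a1 was 0.54, and 0.32 without the same pair of libraries. Whether these correlations differ from those among the haemoglobin rows was not tested. Slc4a1, Klf1 and Hemgn had reads in fewer than 6 libraries and entered no correlation.

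**Figure D3:**
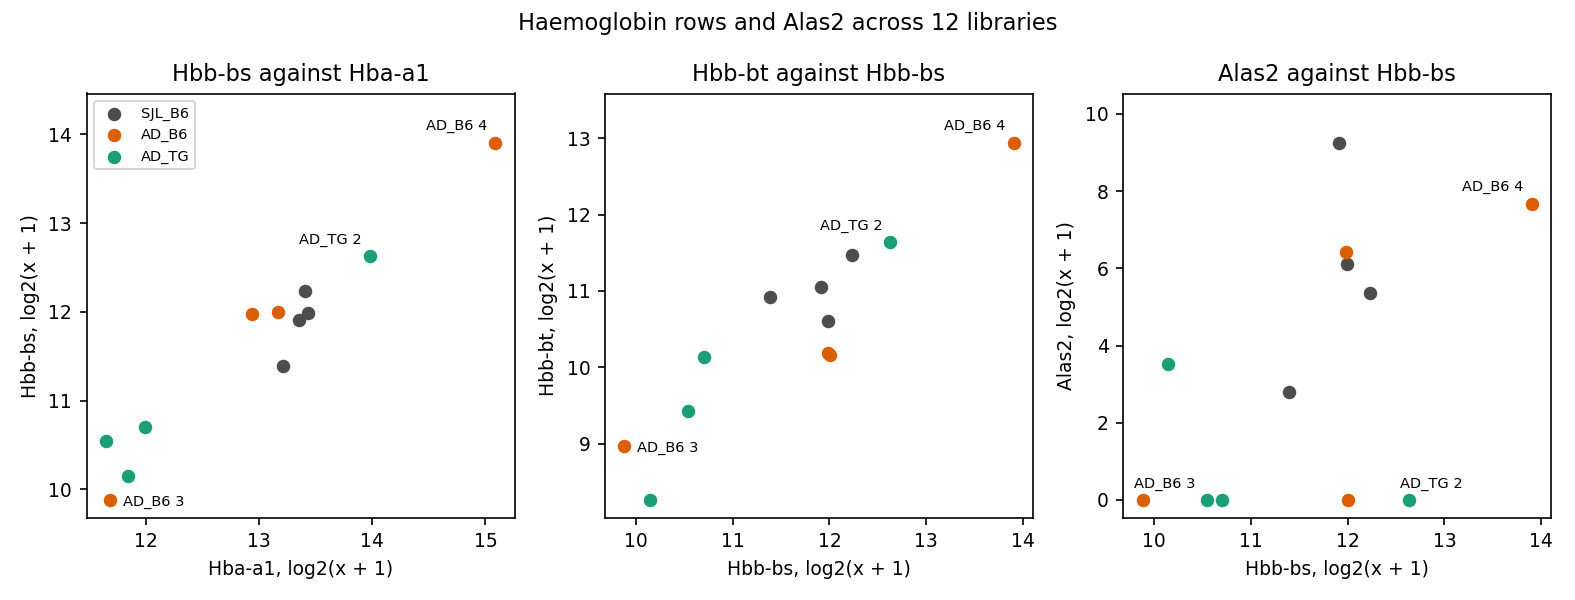
Deposited log2(x + 1) values of Hbb-bs against Hba-a1, Hbb-bt against Hbb-bs and Alas2 against Hbb-bs, each point 1 of the 12 libraries coloured by group. The haemoglobin rows lie along a line from AD_B6 replicate 3 to AD_B6 replicate 4 (r = 0.97 in the first panel), while 5 libraries across the haemoglobin range lie at or next to 0 for Alas2.

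The rows most like the haemoglobin sum, by Pearson's r over 12 libraries among 11950 other tested genes, were Hbb-b1 (0.99) and Hbb-b2 (0.94). Both may hold the same reads as Hbb-bs and Hbb-bt, which are part of the sum, so their rank says nothing new. After Hbb-b1 and Hbb-b2 came Fam122b (0.88), Abcd4 (0.84), Etnk1 (0.82), Net1 (0.82), Hist1h4k (0.80), Dph1 (0.80), Capn12 (0.80) and Caprin1 (0.79). In all, 8 genes, Hbb-b1 and Hbb-b2 among them, had r of 0.8 or more and 14 had -0.8 or less. Without AD_B6 replicate 4, r was 0.73 for Etnk1 and 0.65 for Capn12, against 0.89 for Fam122b and 0.99 for Hbb-b1. Fam122b, Abcd4, Net1, Hist1h4k and Dph1 had no reads in 1 to 6 of the 12 libraries. These values are descriptions without a test, since the genes were picked for their r.

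AD_B6 against SJL_B6 showed no member past the threshold. limma called 0 of 11955 genes at a Benjamini-Hochberg adjusted p below 0.05 (0%), and 647 genes (5.41%) had an unadjusted p below 0.05, none of them among the 5 tested members. Hba-a1 differed by -0.13 (SE 0.49, 95% interval -1.14 to 0.88, limma adjusted p = 0.991) and Hbb-bs by 0.06 (SE 0.58, -1.14 to 1.26). Hba-a2 differed by -0.02 (SE 0.71), Hbb-bt by -0.45 (SE 0.68) and Alas2 by -2.36 (SE 2.37), all on the log2(x + 1) scale. The sign was not stable: Hbb-bs differed by -0.59 without AD_B6 replicate 4, and Hba-a1 by 0.38 without AD_B6 replicate 3. Values were below 0 for 4 of 5 members, with a median of -0.13, beside 59.8% of all tested genes and a median of -0.31.

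AD_TG against AD_B6 gave lower mean values for all 5 tested members, none past the threshold. limma called 0 of 11955 genes (0%), and 639 genes (5.35%) had an unadjusted p below 0.05, again none of the members. The differences were -0.85 for Hba-a1 (SE 0.49, 95% interval -1.87 to 0.16, limma adjusted p = 0.871), -0.69 for Hba-a2 (SE 0.71), -0.94 for Hbb-bs (SE 0.58, -2.14 to 0.26), -0.70 for Hbb-bt (SE 0.68) and -2.64 for Alas2 (SE 2.37). Of all tested genes 37.2% had values below 0, and the median over them was 0.41, against -0.85 over the 5 members. As the haemoglobin rows moved together across libraries, the 5 members are not separate observations. Single libraries moved the differences of the members in both directions. Without AD_B6 replicate 4 the difference was -0.23 for Hba-a1, -0.28 for Hbb-bs, 0.02 for Hba-a2 and 0.09 for Hbb-bt. Without AD_B6 replicate 3 it was -1.36, -1.62, -1.24 and -1.23 in the same order, and without AD_TG replicate 2 it was -1.39, -1.48, -1.15 and -1.29. Leaving out AD_TG replicate 1 gave -0.17 for Hbb-bt, and leaving out AD_TG replicate 3 gave -0.38 for Hba-a2.

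AD_TG against SJL_B6 also gave lower mean values for all 5 tested members, again with none past the threshold. limma called 0 of 11955 genes (0%), and 357 genes (2.99%) had an unadjusted p below 0.05, among them 1 member, Alas2. Alas2 differed by -5.00 (SE 2.37, 95% interval -9.88 to -0.11, limma adjusted p = 0.999), on a scale set by libraries at 0. Its exact two-sided permutation p was 0.0571, where 4 against 4 libraries allow 0.0286 at best. Hba-a1 differed by -0.98 (SE 0.49, -1.997 to 0.03), Hba-a2 by -0.71 (SE 0.71), Hbb-bs by -0.87 (SE 0.58) and Hbb-bt by -1.15 (SE 0.68, -2.56 to 0.26). In Hba-a1, Hbb-bs, Hbb-bt and Alas2, 3 of 4 AD_TG libraries lay below the lowest SJL_B6 library, and for the 3 haemoglobin rows AD_TG replicate 2 lay above the highest. Values were below 0 for 5 of 5 members, with a median of -0.98, beside 46.7% of all tested genes and a median of 0.08. The haemoglobin rows moved together across libraries, so the 5 members are not separate observations. Without AD_TG replicate 2, the difference was -1.52 for Hba-a1, -1.18 for Hba-a2, -1.42 for Hbb-bs and -1.74 for Hbb-bt. It was smaller without other libraries: -0.61 for Hbb-bt without AD_TG replicate 1, and for Hba-a2 -0.40 without AD_TG replicate 3 and -0.39 without SJL_B6 replicate 4. Hba-a2 differed by -1.10 without SJL_B6 replicate 1, and none of these values passed the threshold.

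Members with groups that did not overlap numbered 0 of 5 in each comparison, beside 2.82% of tested genes when AD_B6 was set against SJL_B6, 2.88% when AD_TG was set against AD_B6, and 2.53% when AD_TG was set against SJL_B6. The comparisons share groups, so their values for a gene are not independent of each other. Nor do counts and medians over the 5 members rest on 5 separate observations, since the haemoglobin rows moved together. Over the haemoglobin rows and all 3 comparisons, the 12 exact two-sided permutation p-values ran from 0.143 to 1.

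**Figure D4:**
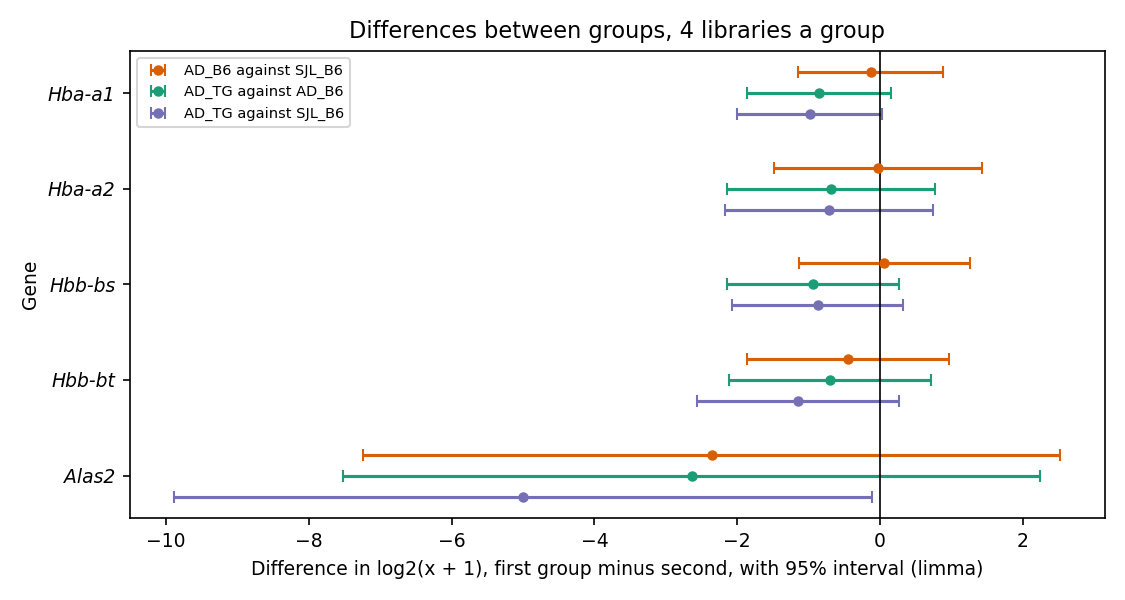
Differences between groups for the 5 tested members, first group minus second in log2(x + 1), with 95% intervals from limma (4 libraries a group). The intervals of all haemoglobin rows cross 0, and that of Alas2 for AD_TG against SJL_B6 ends at -0.11.

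With the spread pooled over the 3 groups, the haemoglobin rows varied within groups more than most genes of like level. The within-group SD of Hba-a1 was 1.03 log2 units, against a median of 0.44 over the 59 tested genes within 0.5 of its mean, and 96.6% of those genes varied less. The SD was 1.20 for Hba-a2 (88.8% of its neighbours varied less), 1.16 for Hbb-bs (99%) and 1.29 for Hbb-bt (96%). Alas2, at 3.00, varied less than most neighbours, of which 18.3% had a lower SD. In SJL_B6 alone the SD was 0.10 for Hba-a1, 0.35 for Hbb-bs and 0.36 for Hbb-bt. These lay below the pooled medians of their neighbours, 0.44, 0.53 and 0.64. For Hba-a2 the SD in SJL_B6 was 0.91, above the pooled median of its neighbours, 0.77. limma draws the spread of a gene toward that of genes of its level, so the SE of Hba-a1 was 0.49 where its own spread alone would give 0.73.

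Among the 17 rows of a list of 19 red cell membrane and skeleton genes, Rhag and Icam4 were among those with no reads in any library. Ank1, Rhd, Kel and Ermap had reads in 1 to 3 libraries. Rhd, a Rhesus blood group gene, had 7.05 in AD_B6 replicate 4 and 6.66 in SJL_B6 replicate 4, and Ermap, an erythroid membrane protein gene, had 6.33 in AD_B6 replicate 4 and 3.85 in SJL_B6 replicate 2, with no reads elsewhere. Tmod1, Aqp1 and Slc2a1, which many other cells also express, had reads in all 12. The 9 tested genes gave 0 calls in each comparison. For AD_B6 against SJL_B6, 8 of 9 lay below 0 (median -0.80), beside 59.8% of all tested genes (median -0.31). For AD_TG against AD_B6, 8 of 9 lay above 0 (median 1.46), and of all tested genes 37.2% lay below 0 (median 0.41). For AD_TG against SJL_B6, 4 of 9 lay above 0, with 46.7% of all tested genes below 0. The summed level of this list was lowest in AD_B6 replicate 3, at 8.56, and next lowest in AD_B6 replicate 2, at 11.03. Aqp1 ran from 8.09 to 11.38 and Slc2a1 from 6.42 to 10.63, so this sum is not a level of red cell genes alone. The part of AD_B6 replicate 3 in the differences between groups was not tested.

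Of 10 erythroid transcription factors, Gata1 and Gfi1b had no reads in any library. Tal1 had 5.06 in AD_B6 replicate 4 and 1.93 in SJL_B6 replicate 2 only, and Ldb1, a broadly used cofactor, had reads in all 12. The 5 tested factors gave 0 calls, with median differences of -0.03 for AD_B6 minus SJL_B6, -0.76 for AD_TG minus AD_B6 and 0.67 for AD_TG minus SJL_B6.

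All 14 genes of haem synthesis and mitochondrial haem transport had reads in some library, and Alas1, the housekeeping counterpart of Alas2, Alad, Urod, Slc25a39 and Tmem14c had reads in all 12. Alas1 lay between 8.42 and 10.57 and correlated with Hbb-bs at r = 0.53 (rho = 0.45, permutation p = 0.0781 for r, adjusted 0.138). Its r was 0.36 without the 2 libraries farthest from the median and 0.67 in the 7 libraries without small values. The summed level of this list ran only from 11.90 to 12.30 across libraries. Of its 13 tested genes 0 were called, and 5 lay above 0 for AD_B6 minus SJL_B6 and 8 for each comparison with AD_TG. Of all tested genes, 59.8% lay below 0 for AD_B6 minus SJL_B6, 37.2% for AD_TG minus AD_B6 and 46.7% for AD_TG minus SJL_B6.

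**Figure D5:**
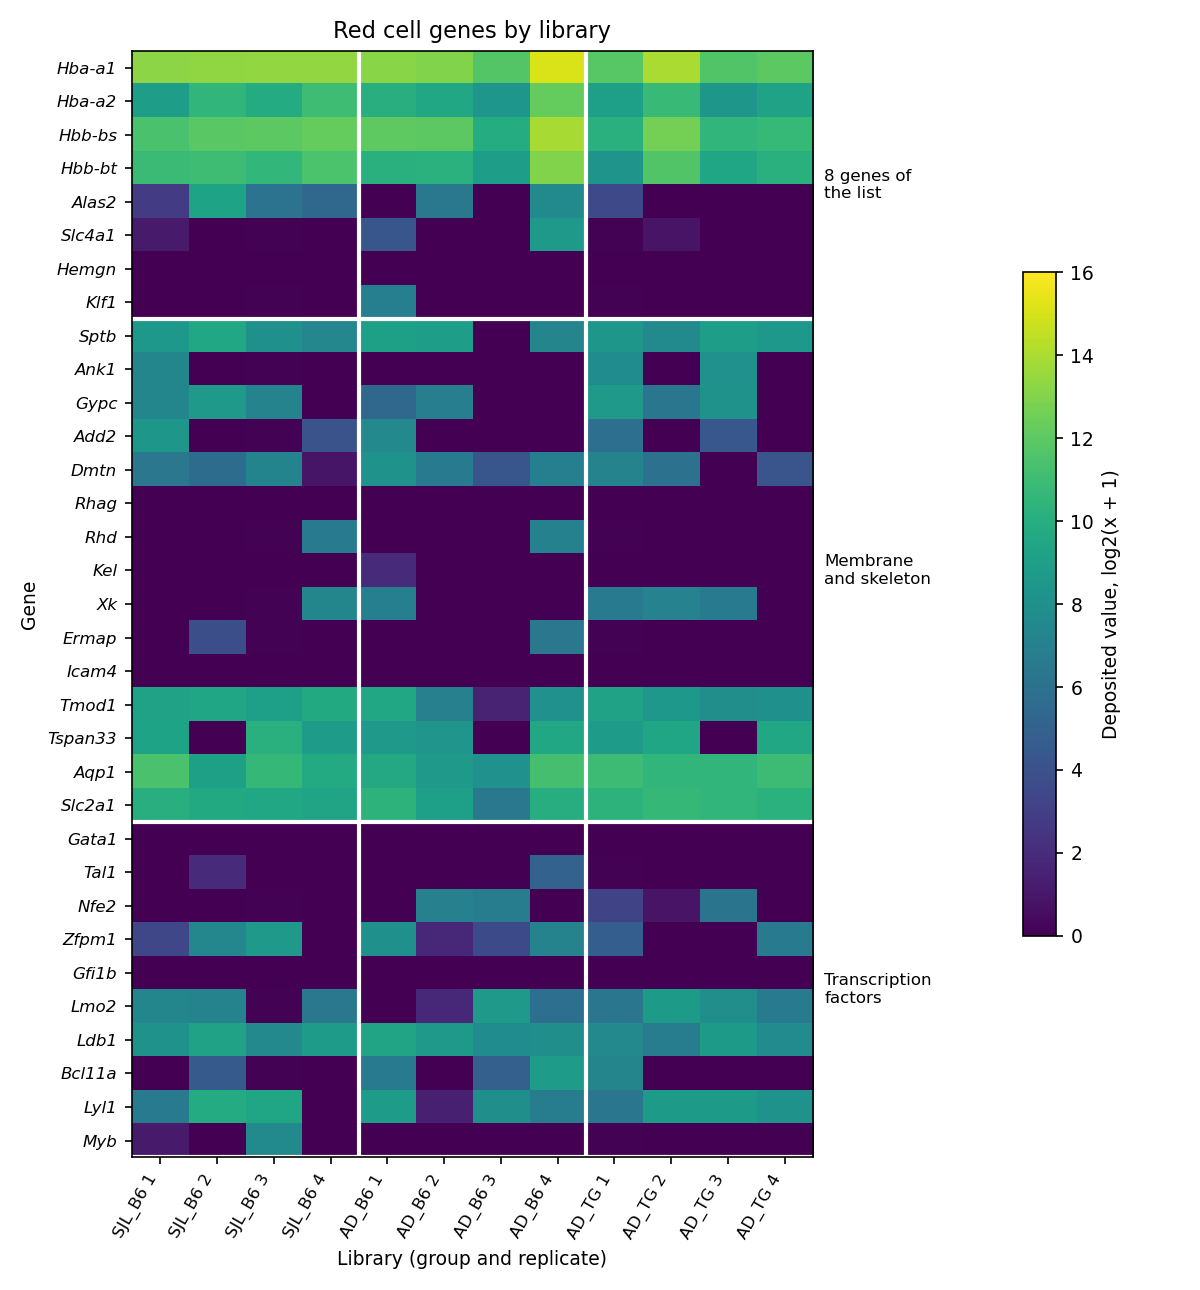
Deposited log2(x + 1) values (colour scale) of the 8 members, 15 red cell membrane and skeleton genes and the erythroid transcription factor list in each of the 12 libraries. The 4 haemoglobin rows are filled in every library, Hemgn, Rhag, Icam4, Gata1 and Gfi1b are empty in every library, and Slc4a1 is highest in AD_B6 replicate 4.

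For erythroid iron, enzyme and maturation genes, 13 were tested and 0 called. For AD_B6 against SJL_B6, 12 of 13 lay below 0 (median -1.43), beside 59.8% of all tested genes (median -0.31). For AD_TG against AD_B6, 10 of 13 lay above 0 (median 1.41), and of all tested genes 37.2% lay below 0 (median 0.41). The haemoglobin rows lay below 0 in the latter comparison, unlike the median of this list and that of all tested genes. AD_B6 replicate 3, the library with the fewest genes with reads, had no reads of Blvrb, Slc11a2, Steap3 and Ube2o, each of which had reads in the other 11. Car2, a carbonic anhydrase, was highest in AD_B6 replicate 4 (11.20) but correlated with Hbb-bs only at r = 0.11 (rho = 0.10, permutation p = 0.74 for r, adjusted 0.904). Its r was -0.28 without the 2 farthest libraries and -0.51 in the 7 libraries without small values. Trim58, which acts late in red cell maturation, had no reads in any library.

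Of the genes that clear haem and haemoglobin, Cd163 and Hmox1 were compared with Hbb-bs. Cd163, the macrophage receptor for haemoglobin bound to haptoglobin, lay between 6.92 in AD_B6 replicate 1 and 11.32 in SJL_B6 replicate 2. Against Hbb-bs it had rho = -0.70 (permutation p = 0.014, adjusted 0.0439) but r = -0.54 (permutation p = 0.0666, adjusted 0.138), and r = -0.51 without the 2 libraries farthest from the median and -0.37 in the 7 libraries without small values. Hmox1, the enzyme that breaks haem open, had r = 0.07 with Hbb-bs (rho = 0.27, permutation p = 0.838 for r, adjusted 0.969). Its r was -0.19 without the 2 farthest libraries and 0.38 in the 7 libraries without small values. The 10 tested genes of this list gave 0 calls in each comparison.

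AD_B6 replicate 4, the library with the most haemoglobin, had the highest values of some platelet and most choroid plexus genes listed. The share of all tested genes highest in that library was not computed, so the counts below have no background. AD_B6 replicate 4 had the highest value of 6 of 13 platelet and megakaryocyte genes, among them Ppbp (9.83), Itgb3 (8.49) and Gp1ba (7.70, without reads in the other 11 libraries), while Gp5 and Tubb1 were among those with no reads in any library. The 6 platelet genes included Gp9 (1.77) and Gp6 (1.14), both under 2.30, the log2 value of 3 reads in that library. Pf4, the only platelet gene listed with reads in all 12 libraries, was 10.72 in AD_B6 replicate 4, against a median of 11.05. The summed platelet level of AD_B6 replicate 4, 11.89, was below that of AD_TG replicate 4, 12.53. Most of the latter sum was Pf4, at 12.41 in AD_TG replicate 4. Pf4 is also in the macrophage list, so the summed platelet levels are not those of platelet genes alone. AD_B6 replicate 4 was also highest for 7 of 8 choroid plexus genes (Ttr 19.18 and Enpp2 17.42 among them) and for 2 of 14 neutrophil and granule genes, Mmp8 (10.40) and Mpo (7.10). It was highest for 0 of 12 macrophage, 0 of 11 lymphatic endothelial, 0 of 10 pan-endothelial and 0 of 8 meningeal fibroblast genes. Its summed lymphatic endothelial level, 11.6, was the lowest of the 12 libraries, and its summed macrophage level, 14.03, the second lowest. Across groups the summed platelet level overlapped, at 10.03 to 11.8 in SJL_B6, 10.6 to 11.9 in AD_B6 and 10.2 to 12.5 in AD_TG, and the summed neutrophil level ran from 9.47 to 12.8, 10.8 to 14.4 and 9.84 to 14.3. The choroid plexus level ran from 14.2 to 18.8, 14.5 to 19.6 and 17.0 to 19.1, and the macrophage level from 14.8 to 15.4, 13.9 to 15.2 and 14.5 to 15.1. Their part in the haemoglobin values was not tested.

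Besides Cd163, 6 other single markers of cell types were compared with Hbb-bs. Pearson's r was 0.12 for the neutrophil gene S100a9 (rho = 0.20, adjusted permutation p = 0.904 for r), -0.16 for Csf1r (rho = 0.01, adjusted 0.837), 0.05 for Ttr (rho = 0.23, adjusted 0.969), -0.41 for Pf4 (rho = -0.45, adjusted 0.277), 0.55 for Lyve1 (rho = 0.34, adjusted 0.138) and -0.55 for the fibroblast gene Col1a2 (rho = -0.62, adjusted 0.138). Without AD_B6 replicates 3 and 4, the farthest from the median of Hbb-bs, these values of r were 0.04, 0.03, -0.19, -0.41, 0.27 and -0.48. In the 7 libraries without small values they were 0.27, 0.14, -0.15, -0.63, 0.83 and -0.77. Within groups, after subtraction of each group mean, they were 0.17, -0.31, 0.19, -0.32, 0.69 and -0.62. These alternatives carry no test. The estimated reads of a library had r = -0.01 (adjusted permutation p = 0.98) and its number of genes with reads also r = -0.01. For the number of genes, r was -0.65 without AD_B6 replicates 3 and 4. It was 0.62 in the 7 libraries without small values and 0.21 within groups, so its sign turned with the libraries used. For the estimated reads these values were 0.47, -0.15 and -0.03.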

How the data were processed

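Each of the 12 libraries has 1 file of log2 values, deposited by the authors with 1 row per gene symbol. From the values, these are log2(x + 1) of scaled amounts, and the scaling is not given in the sources used here. The submitters' processing notes list hg19 as the build and Bowtie2 with bedtools as tools, without versions. That build is human although the organism is mouse, so no coordinates of the files were used. For 35 symbols with repeated entries, only that of highest mean was used, which left out 44 of 23282 entries. The value of 1 read was estimated from the steps of the linear values below 20, of which 90.7 to 100% lay within 0.15 of whole reads. A gene had reads at a linear value of 0.3 or more.

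Genes reaching a linear value of 10 in 4 or more libraries, 11955 in all, were fitted with limma 3.58.1 (R 4.3.3; lmFit, eBayes with trend) on all 12 libraries, two-sided, with Benjamini-Hochberg adjustment over all of them and a threshold of 0.05. The fit was tested on values shuffled within each gene, with shifts added that were larger than the haemoglobin differences between groups. That test therefore does not cover differences as small as those of the haemoglobin rows. Correlations used 100000 permutations, adjusted over 22 pairs. Alternatives covered filters, pseudocount, scaling, replicate number, samples in the fit and single libraries. Genes named are the 8 members, the 10 genes most correlated with the haemoglobin sum, and list examples. The members and lists were chosen with earlier results of these data known, and list examples after their values were seen. A few list genes are not reported here. All 8 members matched RefSeq symbols and 7, all but Slc4a1, its promoter table, of which 4 are printed. Identities came from GENCODE transcripts.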

Additional observations from a re-analysis of the deposited data

Results flagged for a closer look

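In groups of 4, a library was marked when its gap to the nearest other library took up more of the group's range than Dixon's test allows at the 95% level. Of 34 groups checked, 7 were marked. The test marks about 1 in 20 only for independent, normally distributed values. Where 3 libraries lie at or next to 0, almost any library with reads is marked, and the haemoglobin rows are not independent. The 7 marks can therefore not be compared with that rate. In AD_TG, Hba-a1 in replicate 2 was 13.98, far above the other 3 libraries, and Alas2 in replicate 1 was 3.53, where the other 3 had no reads. Slc4a1 stood apart through 1 read in SJL_B6 replicate 1 (1.14) and 1 read in AD_TG replicate 2 (0.81), which is under the 3 reads that a count of 0 allows. Klf1 stood apart in AD_B6 replicate 1 at 6.91, with about 127 reads against none in the other 3 libraries. In AD_TG replicate 3, the ratio of Hbb-b1 to Hbb-bs was 0.783 and that of Hbb-b2 to Hbb-bt was 0.589, both far below the other 3 libraries.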

How the results depend on the processing

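No gene was called in any of the 3 comparisons under the 22 settings, which include filters, log2(x + 16), median centring, quantile normalisation, robust shrinkage, only the 8 libraries compared, each library left out, a covariate for the 5 libraries with small values above 0 and, chosen after seeing the data like that covariate, the fit without AD_B6 replicate 4 and AD_TG replicate 2. The lowest adjusted p over genes and settings was 0.272 for AD_B6 against SJL_B6, 0.0596 for AD_TG against AD_B6 and 0.666 for AD_TG against SJL_B6. Same-numbered libraries did not deviate together (r from -0.02 to 0.07, and 4 of 12 libraries best with their own number), and with the replicate block 0 genes were called.

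For AD_B6 against SJL_B6 the sign turned for Hba-a1 without AD_B6 replicate 3 (0.38). It turned for Hba-a2 without SJL_B6 replicate 2 (0.12) or 4 (0.29) and without AD_B6 replicate 2 (0.13) or 3 (0.53). It turned for Hbb-bs without SJL_B6 replicate 1 (-0.10), without AD_B6 replicate 4 (-0.59) and without it and AD_TG replicate 2 together (-0.59), and for Hbb-bt without AD_B6 replicate 3 (0.086). For AD_TG against AD_B6 it turned without AD_B6 replicate 4 for Hba-a2 (0.025) and Hbb-bt (0.091). With single libraries left out, Hba-a1 ranged from -0.75 to 0.38 for AD_B6 against SJL_B6, Hba-a2 from -0.73 to 0.53, Hbb-bs from -0.59 to 0.75 and Hbb-bt from -1.24 to 0.09. For AD_TG against AD_B6, Hba-a1 ranged from -1.39 to -0.23, Hbb-bs from -1.62 to -0.28, Hba-a2 from -1.24 to 0.02 and Hbb-bt from -1.29 to 0.09. For AD_TG against SJL_B6, Hba-a1 ranged from -1.52 to -0.74, Hba-a2 from -1.18 to -0.39, Hbb-bs from -1.42 to -0.59, Hbb-bt from -1.74 to -0.61 and Alas2 from -6.03 to -3.87, and no member changed sign under any setting. The 6 haemoglobin correlations ranged from 0.78 to 0.98 with single libraries left out. Alas2 was not in the set with a linear value of 10 in all 12 libraries and has no value there. Outside AD_B6 replicates 1 and 4, Slc4a1, Klf1 and Hemgn had 0 or 1 read per library, so differences between those libraries were not detectable at this depth. With log2(x + 16), Alas2 differed by -0.88 for AD_B6 against SJL_B6, -1.42 for AD_TG against AD_B6 and -2.30 for AD_TG against SJL_B6.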
